A study of Mus musculus with 16 samples.

Results

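The 40 genes described here encode the core machinery that repairs DNA double-strand breaks and DNA interstrand crosslinks in mouse cells. They were chosen by name, as textbook members of 5 role groups, with earlier results of these data known. The groups are homologous recombination (14 genes), break sensing and end resection (4 genes), damage kinases, checkpoint and mediators (8 genes), the Fanconi pathway (10 genes) and end joining (4 genes). All 40 were found among the 49492 genes listed and all 40 were among the 15240 genes with enough reads to test.

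RNA was sequenced from splenic germinal centre B cells. The C57BL/6J mice were 3 months old and had received sheep red blood cells 8 days earlier. Control mice carried Cγ1-cre on 1 allele (Cγ1-cre+/-). Mutant mice carried the same Cre and 1 conditional allele of a mutated histone methyltransferase, Ezh2(Y641F)fl/wt;Cγ1-cre+/-, so Cre was present in both genotypes. Cγ1-cre acts in B cells that transcribe the constant region of Ig gamma 1, chiefly in the germinal centre, and the share of cells that had recombined was not measured here. From each genotype B220+ FAS+ CD38- cells were sorted as CXCR4+ CD86- centroblasts of the dark zone or CXCR4- CD86+ centrocytes of the light zone. Each of the 4 groups had 4 libraries, described by the submitters as biological replicates, and all are labelled as 1 litter. Libraries 1 and 2 of every group carried Y-linked transcripts and libraries 3 and 4 did not. Libraries held 35230563 to 44466911 counted reads.

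Double-strand breaks are either joined end to end, by the Ku proteins, their kinase and DNA ligase IV, or repaired by homologous recombination, in which the broken end is cut back and copies the sister chromatid. Recombination depends on a replicated sister and is a process of S and G2 phase. Fanconi proteins recognise crosslinked or stalled replication forks and hand them to the recombination machinery. Germinal centre B cells divide fast and break their own immunoglobulin loci, since the deaminase AID starts class switching there, and switch breaks are mostly resolved by end joining. EZH2 methylates histone H3, and the tyrosine substitution in this allele is a recurrent change of germinal centre lymphomas that alters the enzyme's preference for its substrate.

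The sorts were visible in the transcripts of their own markers. Cxcr4 averaged 444 ± 17.0 CPM (reads per library scaled to a common total; SD, n = 4) in control centroblasts and 197 ± 10.9 in control centrocytes, and Cd86 averaged 145 ± 37.7 and 280.5 ± 40.8. Ezh2 counts cannot tell the mutated from the normal allele. Its level fell from 289 ± 42.0 to 222 ± 32.0 CPM in mutant centroblasts and from 245 ± 15.0 to 189 ± 15.2 in mutant centrocytes (log2 fold changes -0.38 ± 0.12 SE and -0.37 ± 0.12, edgeR adjusted p = 0.0486 and 0.0395).

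Of the members, H2afx stood highest per length. Divided by the length of the annotated exons, its level averaged 131.6 CPM per kilobase over the 16 libraries. The exons of all annotated transcripts of a gene were merged for this length, so the order of the genes partly depends on the annotation. H2afx encodes the histone variant whose phosphorylated form marks chromatin beside a break. Topbp1, which activates the kinase ATR, followed at 29.0 CPM per kilobase, and the Ku subunits Xrcc5 and Xrcc6 at 21.3 and 20.9. The order of the Ku subunits was not stable, since control centroblasts gave 17.2 ± 1.88 for Xrcc5 and 22.9 ± 1.23 for Xrcc6, and mutant centroblasts gave 23.0 ± 3.90 and 22.2 ± 1.20 (CPM per kilobase, SD, n = 4). The highest of the recombination genes over all libraries was Brca1 at 12.1 CPM per kilobase, ninth of the 40, and the lowest of all was Rad51b at 1.01. Brca1 led them in controls only. In mutants Rad51d stood level with it, at 10.3 ± 0.751 against 10.25 ± 1.27 in centroblasts and 9.44 ± 0.855 against 9.29 ± 0.675 in centrocytes. Nbn led the break sensing genes at 16.1. Fancl, the ubiquitin ligase subunit of the Fanconi core complex, stood highest of the Fanconi genes at 12.6 over all libraries, but in control centrocytes its 10.03 lay below Fancg at 11.95, Fanci at 11.7, Fanca at 11.47 and Fancm at 10.4 (CPM per kilobase).

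2 control centroblast libraries stood apart from their group, in opposite directions. Control centroblast library 4 held the lowest value of its group for 25 of the 40 members, and mutant centroblast library 4 did so for 20. In control centroblast library 4 the deviation of all annotated tested genes from their mean over libraries was correlated with transcript length at a Spearman coefficient of -0.21 and with GC content at 0.38, across genes, which are not independent. Control centroblast library 1 held the highest value of its group for 26 of the 40 members. There the correlations were 0.15 with length and -0.62 with GC content, the strongest of the 16 libraries for GC content, and the members' median deviation was 0.27 against -0.08 in library 4 (log2). Correlation with length also differed by genotype in centrocytes. It was 0.08, 0.21, 0.20 and 0.25 in control centrocyte libraries 1 to 4 and 0.01, -0.09, -0.25 and 0.07 in mutant ones. Every control centrocyte library thus stood above every mutant one. Mutant centroblast library 2 had the strongest correlation with length of the 16 libraries, at -0.34. The members are long genes. Their median transcript length was 4096 bases against 2863 for the tested genes, and 19 of the 40 were at least 4375 bases long, the upper quartile of tested genes. In such bulk samples, fewer cells of a type and less RNA per cell cannot be told apart.

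**Figure D1:**
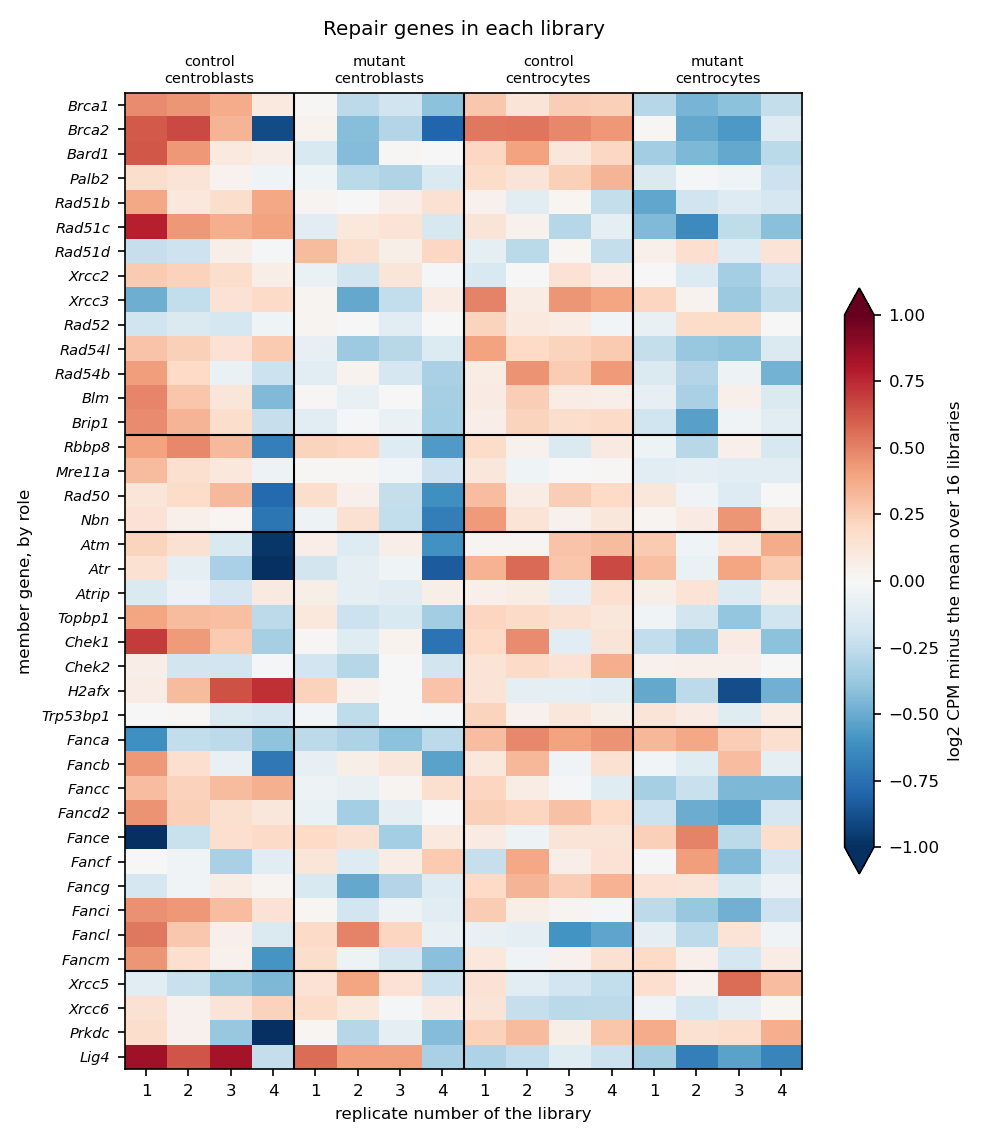
Heat map of the 40 members (rows, by role, lines between the roles) in the 16 libraries (columns, by group and replicate number). Colour is log2 CPM minus the gene's mean over the 16 libraries, with the scale ending at 1 in each direction. Most recombination genes are red in control libraries and blue in mutant ones, and column 4 of the control centroblasts holds the lowest value of its group for 25 members.

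Part of the recombination and Fanconi genes fell in mutants. Brca1 and its partner Bard1, the recombination mediator Rad51c, the strand-exchange motor Rad54l, and the Fanconi pair Fancd2 and Fanci fell in both zones. The falls were moderate, between 1.29-fold and 1.47-fold in centroblasts and between 1.31-fold and 1.55-fold in centrocytes. In centrocytes Brca2, Palb2, Rad54b, H2afx and Fancc fell as well. In all, 6 of 40 members fell in centroblasts, where 6.40% of all tested genes fell, and 11 of 40 fell in centrocytes, where 9.15% of tested genes fell. No member rose in either zone at an adjusted p under 0.05 by edgeR, where 4.06% of tested genes rose in centroblasts and 7.37% in centrocytes. At an unadjusted p under 0.05, Rad51d and Xrcc5 were higher in centroblasts and Xrcc5 in centrocytes, and DESeq2 called Xrcc5 higher in centroblasts and none higher in centrocytes. Besides the falls above, DESeq2 called Palb2 and Fancc lower in centroblasts and Topbp1 lower in centrocytes. It called 11.8% and 17.4% of its tested genes in the 2 zones.

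The control centroblast libraries that stood apart moved these calls in opposite directions. Without library 4 all 6 falls in centroblasts were called, from -0.41 for Fancd2 to -0.64 for Brca1, with Bard1 at -0.54, Rad51c at -0.55, Rad54l at -0.44 and Fanci at -0.49 (log2). Without library 1, 4 of the 6 were called, Brca1 at -0.52, Rad51c at -0.41, Rad54l at -0.43 and Fanci at -0.39. Bard1 and Fancd2 then missed the threshold (-0.35 and -0.30, edgeR adjusted p = 0.111 and 0.117). The median of the 40 was -0.26 without library 4 and -0.13 without library 1. Fancc and H2afx passed in centroblasts under neither omission, at -0.27 and -0.22 without library 4 and -0.29 and -0.43 without library 1.

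The median log2 fold change of the 40 members was -0.20 in centroblasts, with 29 negative, against 0.01 over all tested genes. In centrocytes it was -0.20, with 33 negative, against 0.00 over all tested genes. In both zones 27 members were negative and 5 positive, and the rest changed sign. The zones used different libraries, but whether these came from the same mice is not stated. The zones are therefore not shown to be independent of each other. With each library corrected for GC content and transcript length, the members' medians were -0.04 in centroblasts and -0.07 in centrocytes, with all tested genes at 0.06 and 0.08. With that correction 2 members rose (Rad51d and Xrcc5) and 6 fell in centroblasts, and 4 rose (Rad51d, Fancl, Xrcc5 and Prkdc) and 10 fell in centrocytes. Bard1 and Fancd2 then missed the threshold in centroblasts, as did Palb2 and Rad51c in centrocytes. Newly called falls were H2afx and Fancc in centroblasts and Xrcc3 in centrocytes. Over all tested genes the split moved from 619 higher and 976 lower to 1564 and 1168 in centroblasts, and from 1123 and 1394 to 2747 and 1561 in centrocytes.

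**Figure D2:**
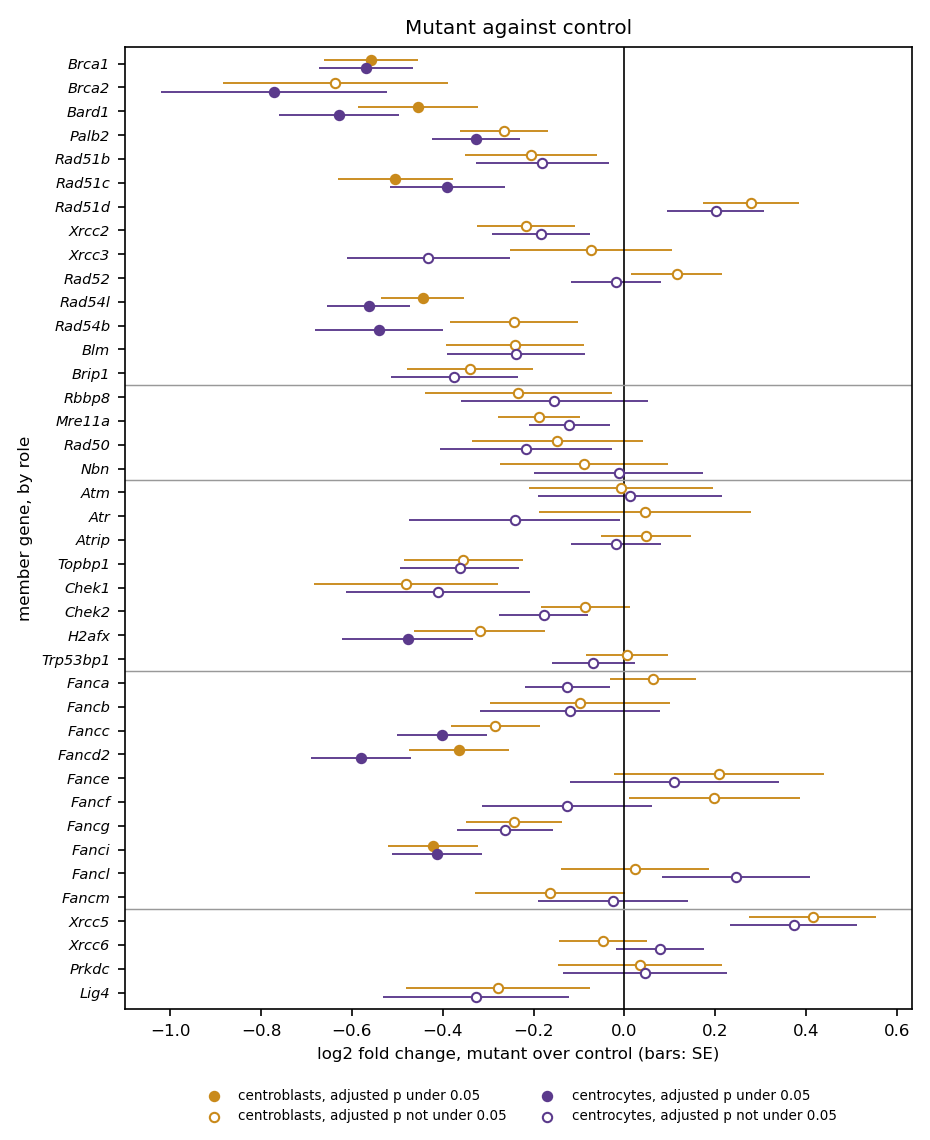
Log2 fold change of each member in mutants over controls (x axis, bars are SE), for centroblasts (orange) and centrocytes (purple). Filled points have an edgeR adjusted p under 0.05. There are 6 filled points for centroblasts and 11 for centrocytes, and every filled point is negative.

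Among the 14 recombination genes 4 fell in centroblasts and 7 in centrocytes, where 6.40% and 9.15% of all tested genes fell. The median log2 fold changes of the 14 were -0.25 and -0.38. Brca1, which steers a resected end towards recombination (chromosome 11, chr11:101488764-101551955, minus strand, GRCm38), had the smallest adjusted p of the members in centroblasts. In control centroblasts its level was 139.9, 137.2, 130.2 and 108 CPM in libraries 1 to 4, and in mutant centroblasts 102, 84.2, 88.0 and 75.8. Control centrocytes held 122, 110, 119 and 119 CPM, and mutant centrocytes 82.7, 72.9, 76.0 and 85.4. Every control library stood above every mutant library of its zone. The log2 fold changes were -0.56 ± 0.10 in centroblasts and -0.57 ± 0.10 in centrocytes (edgeR adjusted p = 0.00181 and 0.00142), and neither call was lost in any alternative fit that kept both sexes.

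Rad54l encodes a motor protein that promotes strand invasion (chr4:116094264-116123690, minus strand). Control centroblasts gave 101, 98.2, 91.8 and 99.7 CPM, against 78.4, 64.7, 68.7 and 75.6 in mutant centroblasts. In centrocytes the control libraries gave 110, 95.4, 97.1 and 99.5 CPM and the mutant libraries 70.5, 63.8, 62.8 and 75.0. The groups did not overlap in either zone, and control centroblast library 4 did not stand out for this gene. Its log2 fold changes were -0.44 ± 0.09 and -0.56 ± 0.09 (edgeR adjusted p = 0.00374 and 0.000551). Of the annotated exon bases of Rad54l, 15.4% overlap Lrrc41 on the other strand, and how strand was used in counting is not given in the sources used here.

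Bard1, the obligate partner of Brca1 in its ubiquitin ligase (chr1:71027498-71103146, minus strand), showed a wider spread among control centroblasts. They held 81.7, 71.8, 57.0 and 55.7 CPM, against 47.9, 39.4, 53.5 and 53.5 in mutant centroblasts. Control centrocytes held 61.5, 70.2, 57.4 and 61.5 CPM, and mutant centrocytes 41.9, 38.9, 37.4 and 44.1. No groups overlapped, but control centroblast libraries 3 and 4 lay just above the highest mutant libraries. The log2 fold change was -0.45 ± 0.13 in centroblasts (edgeR adjusted p = 0.0342) and -0.63 ± 0.13 in centrocytes (0.00381). The centroblast call was lost on leaving out any of 4 libraries (control 1 or 2, mutant 1 or 2), with adjusted p up to 0.121.

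Rad51c belongs to protein complexes that assist strand exchange (chr11:87376645-87404954, minus strand). Control centroblasts had 42.1, 33.1, 31.7 and 32.4 CPM and mutant centroblasts 22.8, 26.4, 27.0 and 22.0. Control centrocytes had 26.9, 25.4, 20.2 and 23.1 CPM and mutant centrocytes 18.1, 15.8, 20.6 and 18.4. The centroblast groups were apart, while the lowest control centrocyte library fell below the highest mutant one. The log2 fold changes were -0.50 ± 0.13 (edgeR adjusted p = 0.0146) and -0.39 ± 0.13 (0.0434), and the second was lost on leaving out any of 6 of the 8 centrocyte libraries, all but control 3 and mutant 3.

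Brca2, which acts on resected ends (chr5:150522630-150570329, plus strand), had the largest log2 fold change of the members in centrocytes. Control centrocytes held 58.8, 59.1, 56.9 and 55.1 CPM against 41.1, 28.7, 27.5 and 37.3 in mutant centrocytes, a log2 fold change of -0.77 ± 0.25 (edgeR adjusted p = 0.0421). Control centroblasts held 62.6, 64.5, 51.7 and 22.0 CPM and mutant centroblasts 41.9, 30.4, 33.3 and 23.6. The first 3 control centroblast libraries lay above all 4 mutant ones and the fourth lay below all of them. With all libraries the centroblast change was -0.64 ± 0.25 (edgeR adjusted p = 0.124), without control library 4 it was -0.89 (0.00162), and without control library 1 it was -0.52 (0.270). The centrocyte call was itself lost on leaving out any library except mutant library 1, with adjusted p up to 0.109.

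Palb2 links Brca1 to Brca2, and Rad54b is a relative of Rad54l. Palb2 (chr7:122107262-122132985, minus strand) held 27.0, 26.1, 28.1 and 30.2 CPM in control centrocytes and 21.6, 23.6, 23.2 and 20.5 in mutant centrocytes. Rad54b (chr4:11558922-11615805, plus strand) held 36.6, 47.5, 41.3 and 46.6 CPM in control centrocytes and 31.3, 28.4, 33.5 and 25.0 in mutant centrocytes. Neither gene's groups overlapped in centrocytes. The log2 fold changes there were -0.33 ± 0.10 for Palb2 (edgeR adjusted p = 0.0289) and -0.54 ± 0.14 for Rad54b (0.0147). The Palb2 call was lost on leaving out any of 4 libraries (control 3 or 4, mutant 1 or 4), with adjusted p up to 0.0986, and in 5 of 10 other fits. That of Rad54b was lost without control library 2 (0.0510). In centroblasts both overlapped, with 26.9, 26.2, 24.4 and 23.1 CPM against 23.1, 19.8, 19.3 and 21.5 for Palb2 and 46.5, 39.8, 33.1 and 29.8 against 32.1, 35.5, 30.8 and 27.7 for Rad54b. Of the exon bases of Rad54b 35.9% are shared with other annotated genes, mostly Fsbp on the same strand, so its reads are uncertain.

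The other 7 recombination genes passed in neither genotype comparison of the main fit. The helicases Blm and Brip1 had log2 fold changes of -0.24 and -0.34 in centroblasts and -0.24 and -0.37 in centrocytes. For Xrcc2 and Xrcc3, of the same family of mediators as Rad51c, the centrocyte values were -0.18 and -0.43, and for Rad51b -0.18. Rad51d, also of that family, went the other way at 0.28 ± 0.11 in centroblasts (edgeR adjusted p = 0.114) and 0.20 ± 0.11 in centrocytes (0.210), and Rad52 stood at 0.12 and -0.02. Averaged over the 14 genes, log2(CPM + 1) was 5.13 to 5.16 in the control centrocyte libraries and 4.74 to 4.84 in the mutant ones. In centroblasts it was 4.96 to 5.27 in controls and 4.83 to 4.97 in mutants, so those ranges met, at control library 4.

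Promoter sequence is shown for 3 of the members that fell in both zones, since the 250 bases before their annotated start lie outside the gene (the outer of 2 starts for Rad51c and Rad54l). The sequences are from RefSeq (GRCm38.p6, 5′ to 3′ on the gene's strand), and capitals mark motif matches. The Brca1 window is chr11:101551956-101552205, that of Rad51c chr11:87404955-87405204 and that of Rad54l chr4:116123691-116123940, all on the minus strand.
Brca1: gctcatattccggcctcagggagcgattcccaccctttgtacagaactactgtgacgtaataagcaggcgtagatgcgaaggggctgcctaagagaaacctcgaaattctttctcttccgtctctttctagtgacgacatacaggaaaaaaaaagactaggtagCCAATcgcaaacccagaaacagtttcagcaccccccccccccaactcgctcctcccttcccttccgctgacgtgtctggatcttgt
Rad51c: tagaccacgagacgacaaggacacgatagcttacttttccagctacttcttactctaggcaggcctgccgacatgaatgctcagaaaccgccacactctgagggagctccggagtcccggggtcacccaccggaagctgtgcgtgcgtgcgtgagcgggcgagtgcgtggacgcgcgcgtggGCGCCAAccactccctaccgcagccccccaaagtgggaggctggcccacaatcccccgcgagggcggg
Rad54l: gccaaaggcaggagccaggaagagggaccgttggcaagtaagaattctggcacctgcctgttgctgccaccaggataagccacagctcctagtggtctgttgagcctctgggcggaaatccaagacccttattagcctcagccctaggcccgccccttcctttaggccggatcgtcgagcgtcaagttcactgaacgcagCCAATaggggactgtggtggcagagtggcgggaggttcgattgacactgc

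The capitals in Brca1 and Rad54l are CCAAT boxes that start 86 and 50 bases before the transcription start. Those in Rad51c are an E2F-type element, TTGGCGC, read on the other strand and lying 68 bases before the start. The search covered both strands for the E2F elements TTCCCGC and TTGGCGC, the cell cycle element TTTGAA and CCAAT, and a TTGGCGC match can share letters with a CCAAT match. Of the 40 members 31 had a RefSeq promoter entry, and 11 of these 31 (35.5%) held an E2F-type element. Such an element was present in 5.62% of all 32851 promoter windows of this length and in 11.8% of the 9643 tested genes with a window. Among the 8 matched members that fell with the mutation 3 held one (Bard1, Brca2 and Rad51c), and among the other 23 matched members 8 did. CCAAT was found in 17 of the 31 members (54.8%) and in 40.8% of tested genes, and TTTGAA in 1 member, Bard1, and in 13% of tested genes. A match describes the letters in the window and is not a measured binding site.

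Of the 10 Fanconi genes 2 fell in centroblasts and 3 in centrocytes, where 6.40% and 9.15% of all tested genes fell. Fancd2 and Fanci, the pair that is ubiquitinated when the pathway is active, fell in both zones, and Fancc of the core complex fell in centrocytes. Fancd2 (chr6:113531682-113597017, plus strand) held 78.0, 67.2, 64.0 and 62.0 CPM in control centroblasts and 54.5, 45.2, 53.8 and 57.1 in mutant centroblasts. In control centrocytes it held 67.5, 66.3, 70.1 and 65.5 CPM and in mutant centrocytes 49.3, 40.6, 39.5 and 50.9. The groups were apart in both zones, more widely in centrocytes. The log2 fold changes were -0.36 ± 0.11 (edgeR adjusted p = 0.0416) and -0.58 ± 0.11 (0.00187). The centroblast call was lost on leaving out any of 6 of the 8 libraries, all but the 2 libraries numbered 4.

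Fanci (chr7:79391929-79450264, plus strand) had 87.0, 85.6, 78.4 and 70.2 CPM in control centroblasts and 64.3, 55.5, 61.3 and 58.9 in mutant centroblasts. Control centrocytes had 75.6, 66.1, 64.8 and 62.9 CPM and mutant centrocytes 52.9, 48.9, 45.5 and 55.0. All control libraries were above all mutant libraries of their zone. The log2 fold changes were -0.42 ± 0.10 (edgeR adjusted p = 0.0101) and -0.41 ± 0.10 (0.00930), kept on leaving out each library in turn. Polg, on the other strand, overlaps 16% of its exon bases.

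Fancc (chr13:63285043-63497278, minus strand) held 30.6, 27.8, 26.1 and 24.3 CPM in control centrocytes and 20.97, 22.6, 19.4 and 19.4 in mutant centrocytes, with no overlap (log2 fold change -0.40 ± 0.10, edgeR adjusted p = 0.0103). In centroblasts it held 32.6, 30.9, 32.9 and 33.8 CPM in controls and 25.5, 25.0, 26.9 and 29.5 in mutants. Those groups did not overlap either, yet the change of -0.28 ± 0.10 missed the threshold (edgeR adjusted p = 0.0794). Fancc was called lower in centroblasts by DESeq2 and with the correction for GC content and length. Of its exon bases 18.6% overlap genes on the other strand. The other core subunits did not pass in either zone in the main fit. Fanca stood at 0.06 and -0.13, Fancb at -0.10 and -0.12, Fancg at -0.24 and -0.26, Fance at 0.21 and 0.11, Fancf at 0.20 and -0.13 and Fancl at 0.02 and 0.25 (log2 fold changes in centroblasts and centrocytes), and Fancg had an unadjusted p under 0.05 in both zones. Fancm, the fork-binding translocase, stood at -0.16 and -0.02.

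H2afx (chr9:44334694-44336077, plus strand) was the member of the damage kinase, checkpoint and mediator group that fell in the main fit. That made 1 of 8 in centrocytes and 0 of 8 in centroblasts, where 9.15% and 6.40% of all tested genes fell. Control centrocytes held 192, 164, 164 and 162 CPM and mutant centrocytes 123, 146, 94.8 and 126, which did not overlap (log2 fold change -0.48 ± 0.14, edgeR adjusted p = 0.0316). Control centroblasts held 184, 218, 273 and 291 CPM and mutant centroblasts 206, 180.3, 176 and 213, which overlapped (-0.32 ± 0.14, adjusted p = 0.193). The centrocyte call was lost on leaving out any library except mutant library 2. With the correction for GC content and length H2afx fell in centroblasts too.

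The kinases themselves did not pass in the main fit. Atm, which responds to breaks, stood at -0.01 ± 0.20 and 0.01 ± 0.20 (log2 fold changes in centroblasts and centrocytes), and Atr, which responds to single-stranded DNA, at 0.05 ± 0.23 and -0.24 ± 0.23. The checkpoint kinase Chek1 stood at -0.48 ± 0.20 (edgeR adjusted p = 0.158) and -0.41 ± 0.20 (0.179), and Topbp1 at -0.35 ± 0.13 (0.101) and -0.36 ± 0.13 (0.0666). Without control centroblast library 4, Chek1 and Topbp1 fell in centroblasts, by 0.65 and 0.49 on the log2 scale (edgeR adjusted p = 0.0226 and 0.00557), and without library 1 they stood at -0.33 and -0.29. DESeq2 called Topbp1 lower in centrocytes. Among libraries with Y-linked transcripts alone Chek1 fell in both zones. With the correction for GC content and length and the replicate number as a block, Atm rose in both zones and Atr in centroblasts. That fit called 15.0% of tested genes in centroblasts and 23.3% in centrocytes. Atrip, Chek2 and Trp53bp1, which favours end joining over resection, lay between -0.18 and 0.05.

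The break sensing and end joining genes gave 0 calls in 4 genes each, in either zone, by edgeR. Of all tested genes 6.40% fell and 4.06% rose in centroblasts, and 9.15% fell and 7.37% rose in centrocytes. At such shares 0 of 4 does not set either group apart. At an unadjusted p under 0.05 the break sensing genes gave 0 in both zones and the end joining genes gave Xrcc5 in both, and DESeq2 called Xrcc5 in centroblasts and no other gene of these groups. Nbn, of the complex with Mre11a and Rad50 that binds broken ends, held 44.01, 41.2, 40.5 and 24.1 CPM in control centroblasts and 38.5, 44.2, 33.5 and 24.7 in mutant centroblasts. In control centrocytes it held 53.4, 43.7, 41.0 and 43.0 CPM and in mutant centrocytes 40.7, 42.1, 54.1 and 42.7. Both pairs of groups overlapped, and library 4 was the lowest in both centroblast groups. All 4 break sensing genes, with the resection factor Rbbp8, had log2 fold changes between -0.23 and -0.01.

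Xrcc5 encodes the larger Ku subunit and was the member with the highest positive genotype value. Control centroblasts held 49.9, 45.9, 41.1 and 39.3 CPM and mutant centroblasts 59.2, 70.5, 59.1 and 46.1. Control centrocytes held 59.2, 49.9, 46.8 and 45.2 CPM and mutant centrocytes 60.2, 55.2, 78.7 and 66.3. The groups overlapped in both zones. The log2 fold changes of 0.41 ± 0.14 and 0.37 ± 0.14 missed the threshold by edgeR (adjusted p = 0.0712 and 0.0774). Its partner Xrcc6 stood at -0.05 and 0.08, the kinase Prkdc at 0.04 and 0.05, and the ligase Lig4 at -0.28 and -0.33.

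No member's genotype change was shown to differ between zones. The test of the difference called 0 of 40 members, with 0 at an unadjusted p under 0.05 by edgeR and 0 called by DESeq2, where edgeR called 0% of the 15240 tested genes and 429 had an unadjusted p under 0.05. For Brca1 the difference was -0.01 ± 0.15 and for Fancd2 -0.21 ± 0.16 (log2, centrocytes minus centroblasts, SE). The 5 members called in centrocytes alone are therefore not shown to be specific to them.

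**Figure D3:**
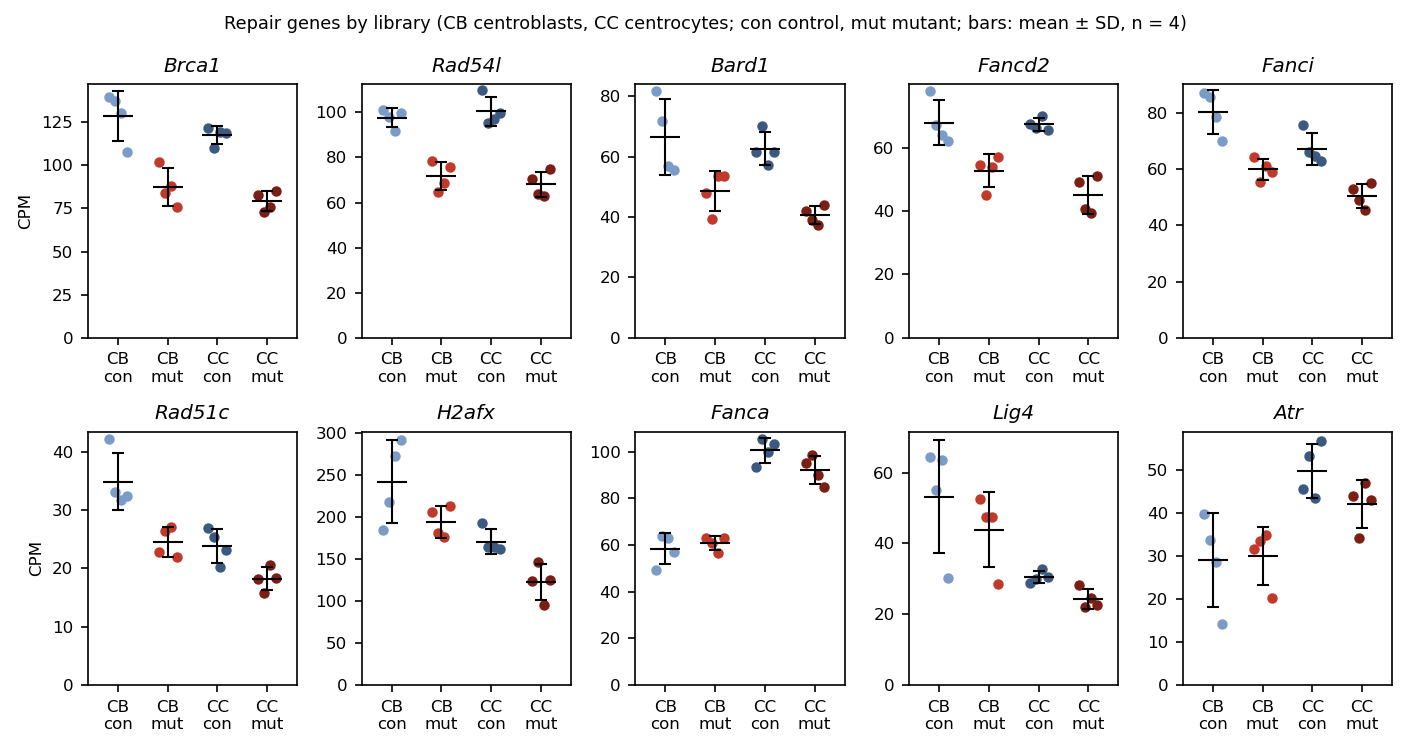
CPM in each library (points) with the mean and SD of 4 (bars) for 10 members. Brca1, Rad54l, Bard1, Fancd2, Fanci and Rad51c were lower in mutants of both zones, Fanca was higher in centrocytes (CC) than in centroblasts (CB), and the single low point of Lig4 and Atr in control centroblasts is library 4.

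Within sexes the picture in centroblasts was uneven. Among libraries with Y-linked transcripts (2 per group) 8 members fell in centroblasts, with a median of -0.25 over the 40, and among those without them 0 did, with a median of -0.14. Calls over all tested genes were uneven in the same direction, since 14.3% of them were called among the former (1158 lower) and 3.27% among the latter (322 lower). The former pair of control centroblasts includes library 1 and the latter library 4. Brca1 had similar values in both, -0.59 (edgeR adjusted p = 0.0223) and -0.53 (0.0909), while Bard1 had -0.83 (0.00596) and -0.07 (0.873). In centrocytes 5 members fell among the libraries with Y-linked transcripts, where 5.82% of tested genes were called (592 lower). Among those without, 7 fell and Fancl and Xrcc5 rose, where 13.9% were called (1118 lower). Brca1, Bard1 and Rad54l were in both sets of falls. Whether the genotype change differs between sexes was not tested. With all libraries but control centroblast library 4, 12 members fell in centroblasts, while the falls over all tested genes went from 976 to 1319 and the share called in either direction came to 13.9%. These members were the 6 named above with Brca2, Blm, Brip1, Topbp1, Chek1 and Lig4, and the median of the 40 was -0.26. Without control centroblast library 1, 4 members and 902 tested genes fell in centroblasts, and without mutant centroblast library 1, 3 and 735 did. In centrocytes 7 members were called without control library 2, control library 4 or mutant library 4. Of all tested genes 10.3%, 10.5% and 12% were called in these fits.

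Some other genes of break repair that are not among the 40 fell as well. Of 85 such genes 82 were tested. In mutant centroblasts 12 fell and 1 rose, where 6.40% of tested genes fell and 4.06% rose, and in mutant centrocytes 15 fell and 1 rose, where 9.15% fell and 7.37% rose. Their medians were -0.12 and -0.10, nearer to 0 than the members' -0.20 in both zones, and 26 and 28 of the 82 were positive. Mdc1, which reads the H2afx mark, fell by 0.53 and 0.55 on the log2 scale. The exonuclease Exo1 fell by 0.49 in centroblasts, and in centrocytes the polymerase of alternative end joining, Polq, fell by 0.70.

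Genes of replication and division moved with them. Where 6.40% of tested genes fell in mutant centroblasts and 9.15% in mutant centrocytes, 8 and 5 of 26 S phase genes did (medians -0.32 and -0.22). Of 20 mitosis genes 4 and 12 fell (medians -0.30 and -0.44). Their part in the members' change was not tested. Macrophage transcripts also moved. The 14 macrophage markers summed to 335 and 339 CPM in mutant centrocyte libraries 3 and 4 and to 52.7 to 128 in the other 6 centrocyte libraries, none or 1 marker of the 14 being at 0 in a library (Vsig4, in 10 of the 16), and 2 of the 13 tested rose in mutant centrocytes. They summed to 29.1 to 87.6 CPM in control centroblasts and 38.4 to 109 in mutant centroblasts. T cell markers (6 of 9 tested) gave 1 rise in each genotype comparison, Thy1. Of the 6 tested, 3 were negative in each, and the medians were 0.02 in centroblasts and 0.14 in centrocytes. The 9 summed to 110 to 174 CPM in control and 173 to 203 in mutant centroblasts, and to 215 to 313 and 294 to 329 in centrocytes. Of 6 plasma cell markers, none at 0 in any library, 1 fell in mutant centrocytes, Prdm1, and the median was -0.47. Their sum was 988 to 1212 CPM in control and 944 to 1257 in mutant centrocytes, and none was called in centroblasts. Of 5 erythroid markers tested, all had positive values in mutant centrocytes and 1 rose, Hbb-bt (median 0.69). The erythroid list summed to 11.9 to 19.2 CPM in control and 19.6 to 40.1 in mutant centrocytes, and none was called in centroblasts. The part of these markers in the members' change was not tested. Without mutant centrocyte libraries 3 and 4 the members' median in centrocytes was -0.21, and 4 members fell (Brca1, Bard1, Rad54l and Fancd2). Calls over all tested genes dropped as well, since 729 of 16029 fell in that fit against 1394 of 15240 with all libraries.

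Between the zones the repair genes did not move as a block. In controls 4 of 40 members rose from centroblasts to centrocytes, where 14.9% of tested genes rose, and 5 fell, where 12.9% fell. The members that rose were Atr, Chek2, Fanca and Fancg, and those that fell were Rad51c, H2afx, Fancl, Xrcc6 and Lig4. In mutants 1 rose, Fanca, where 8.92% of tested genes rose, and 4 fell, Rad51c, H2afx, Fancc and Lig4, where 7.07% fell. Except for the 4 falls in mutants, the members' shares were below those of all tested genes. The members' median log2 fold change was 0.02 in controls and -0.05 in mutants, against 0.00 and 0.02 over all tested genes. Without control centrocyte library 3 or 4 the calls in controls numbered 5 and 4, where 20.05% and 19.9% of tested genes were called. With the correction for GC content and length the control median was -0.08, as was that of all tested genes, and the calls were 3 higher and 9 lower in controls and 2 and 8 in mutants, where all tested genes gave 2231 and 3650, and 1595 and 2400.

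**Figure D4:**
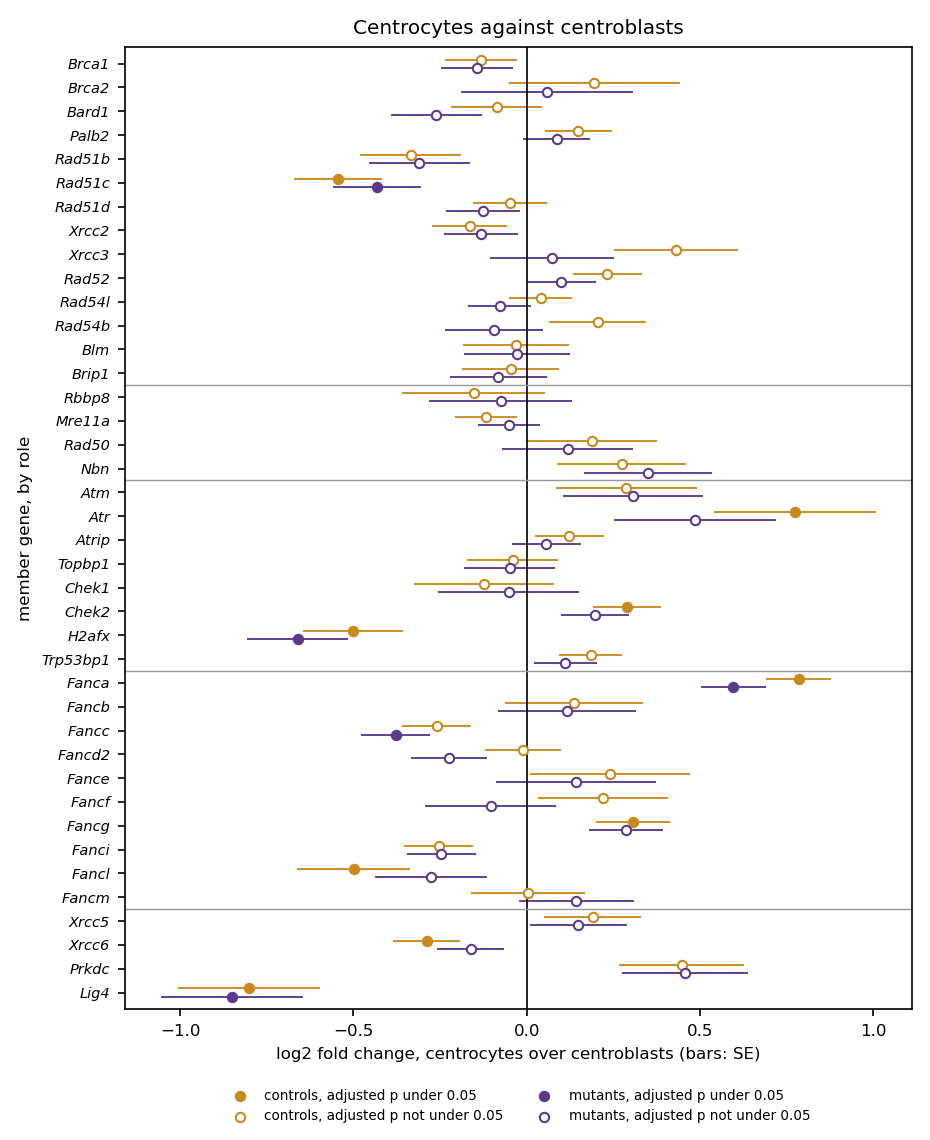
Log2 fold change of each member in centrocytes over centroblasts (x axis, bars are SE), for controls (orange) and mutants (purple). Filled points have an edgeR adjusted p under 0.05. Filled points lie on both sides of 0: 4 above and 5 below in controls, and 1 above and 4 below in mutants.

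Fanca, a subunit of the Fanconi core complex (chr8:123268300-123318576, minus strand), had the smallest p of the zone changes. Control centroblasts held 49.5, 63.7, 63.1 and 57.1 CPM and control centrocytes 93.5, 105, 99.8 and 103. Mutant centroblasts held 63.1, 60.9, 56.8 and 63.0 CPM and mutant centrocytes 95.1, 98.7, 89.8 and 85.0. The zones were far apart in both genotypes, and the genotypes overlapped in both zones. The log2 fold change was 0.78 ± 0.09 in controls (edgeR adjusted p = 1.29e-05) and 0.60 ± 0.09 in mutants (0.000275). Zfp276, on the other strand, overlaps 10.5% of its exon bases. Fancg, in the same core complex, rose in controls from 33.2, 36.4, 39.2 and 37.9 to 42.6, 47.2, 44.1 and 47.4 CPM (log2 fold change 0.31 ± 0.11, edgeR adjusted p = 0.0390).

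Fancl, with 13.7% of its exon bases overlapping Vrk2 on the other strand, went the opposite way. In control centroblasts it held 60.1, 50.3, 43.1 and 37.8 CPM and in control centrocytes 39.7, 39.2, 27.5 and 29.0, which overlapped (log2 fold change -0.50 ± 0.16, edgeR adjusted p = 0.0302). Mutant centroblasts held 47.7, 58.8, 48.3 and 39.6 CPM and mutant centrocytes 39.2, 34.8, 45.9 and 40.7 (-0.28 ± 0.16, adjusted p = 0.279). Fancc, with the values given above, changed by -0.26 ± 0.10 in controls (edgeR adjusted p = 0.0588) and fell by 0.38 on the log2 scale in mutants (0.0138). The zone comparisons and the genotype comparisons share libraries, so these values are not independent of each other.

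Lig4, the ligase that seals ends in end joining (chr8:9969049-9977686, minus strand), was lower in centrocytes. Control centroblasts held 64.3, 55.0, 63.5 and 30.2 CPM and control centrocytes 28.8, 30.0, 32.7 and 30.6. Mutant centroblasts held 52.5, 47.5, 47.4 and 28.4 CPM and mutant centrocytes 28.3, 22.1, 24.5 and 22.5. Library 4 of the centroblasts stood at the centrocyte level in both genotypes. The log2 fold change was -0.80 ± 0.20 in controls (edgeR adjusted p = 0.00755) and -0.85 ± 0.21 in mutants (0.00802), and without control centroblast library 4 it was -1 in controls (0.000218). Xrcc6, the smaller Ku subunit, fell in controls from 103, 95.9, 102 and 109 to 102, 79.3, 77.2 and 77.6 CPM, with overlap at centrocyte library 1 (log2 fold change -0.29 ± 0.10, edgeR adjusted p = 0.0349). Without control centroblast library 4 it missed the threshold (-0.26, 0.0764), as did Fancg (0.32, 0.0540), and without control centroblast library 1 neither Fancg nor Fancl was called. With the replicate number as a block Xrcc6 and Fancg also missed it (-0.30 and 0.31, edgeR adjusted p = 0.104 and 0.0613).

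Rad51c and H2afx were lower in centrocytes of both genotypes. From the library values above, the log2 fold changes of Rad51c were -0.54 ± 0.13 in controls (edgeR adjusted p = 0.00398) and -0.43 ± 0.13 in mutants (0.0268). Those of H2afx were -0.50 ± 0.14 (edgeR adjusted p = 0.0156) and -0.66 ± 0.14 (0.00422). The control groups of H2afx overlapped, since its lowest centroblast library held 184 CPM and its highest centrocyte library 192. With the replicate number as a block H2afx missed the threshold in controls (-0.48, edgeR adjusted p = 0.078), while Rad51c was still called (-0.54, 0.0144). For Rad51c the zones were apart in both genotypes.

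Atr and Chek2 rose in control centrocytes. Atr held 39.9, 33.7, 28.6 and 14.2 CPM in control centroblasts and 45.6, 53.2, 43.4 and 56.7 in control centrocytes. In mutants it held 31.6, 33.6, 34.8 and 20.1 CPM in centroblasts and 44.03, 34.2, 47.0 and 43.0 in centrocytes. The control groups were apart and the mutant groups overlapped. The change of Atr was 0.77 ± 0.23 in controls (edgeR adjusted p = 0.0209) and 0.49 ± 0.23 in mutants (0.174), and without control centroblast library 4 it was 0.54 in controls (0.0308). Atr and Chek2 missed the threshold in controls with the replicate number as a block (0.85 and 0.29, edgeR adjusted p = 0.0750 and 0.0962) and with the compared groups fitted alone. With the number as a block in mutants, Atr rose in mutant centrocytes as well (0.51, edgeR adjusted p = 0.0211). So did the end joining kinase Prkdc, at 0.47 (0.00669) against 0.46 ± 0.18 without the block (0.0971). Chek2 rose from 24.8, 20.8, 20.7 and 23.6 to 26.1, 27.1, 26.2 and 30.5 CPM in controls (log2 fold change 0.29 ± 0.10, edgeR adjusted p = 0.0355).

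Few recombination genes passed the test between zones, where many proliferation genes did. In controls 1 of the 14 recombination genes fell from centroblasts to centrocytes and 0 rose, whereas 19 of 26 S phase genes and 13 of 20 mitosis genes fell and none rose. Their medians were -0.04, -0.44 and -0.61. In mutants the counts of falling genes were 1, 8 and 16, with medians of -0.09, -0.28 and -0.74. Of all tested genes 12.9% fell and 14.9% rose in controls, and 7.07% fell and 8.92% rose in mutants. The 1 falling recombination gene of 14 lay near the falling share in mutants and somewhat below it in controls. Brca1 changed by -0.13 ± 0.10 in controls and -0.14 ± 0.10 in mutants and Rad54l by 0.04 ± 0.09 and -0.08 ± 0.09, none past the threshold. With the correction for GC content and length, Brca1 and Brip1 fell in control centrocytes (-0.21 and -0.23, edgeR adjusted p = 0.0359 and 0.0407), and Bard1 fell in mutant centrocytes (-0.31, 0.0259). Averaged over the list, log2(CPM + 1) of the S phase genes was 7.68 to 7.84 in control centroblasts and 7.28 to 7.499 in control centrocytes. For the recombination genes the control centrocyte range of 5.13 to 5.16 lay within the control centroblast range of 4.96 to 5.27. The difference between the lists was not tested. Markers of naive B cells moved with the zone too, as 4 of 6 rose in each genotype, and their summed level was 294 to 425 CPM in the 8 centroblast libraries and 884 to 1110 in the 8 centrocyte libraries, with none of the 6 at 0. Macrophage markers moved with the zone as well, with medians of 0.89 in controls and 1.73 in mutants over the 13 tested, of which 1 rose in controls and 4 in mutants. Of the plasma cell markers Irf4 rose and Jchain fell in both genotypes, Prdm1 rose in controls and Xbp1 fell in mutants. The part of these markers in the zone changes was not tested.

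**Figure D5:**
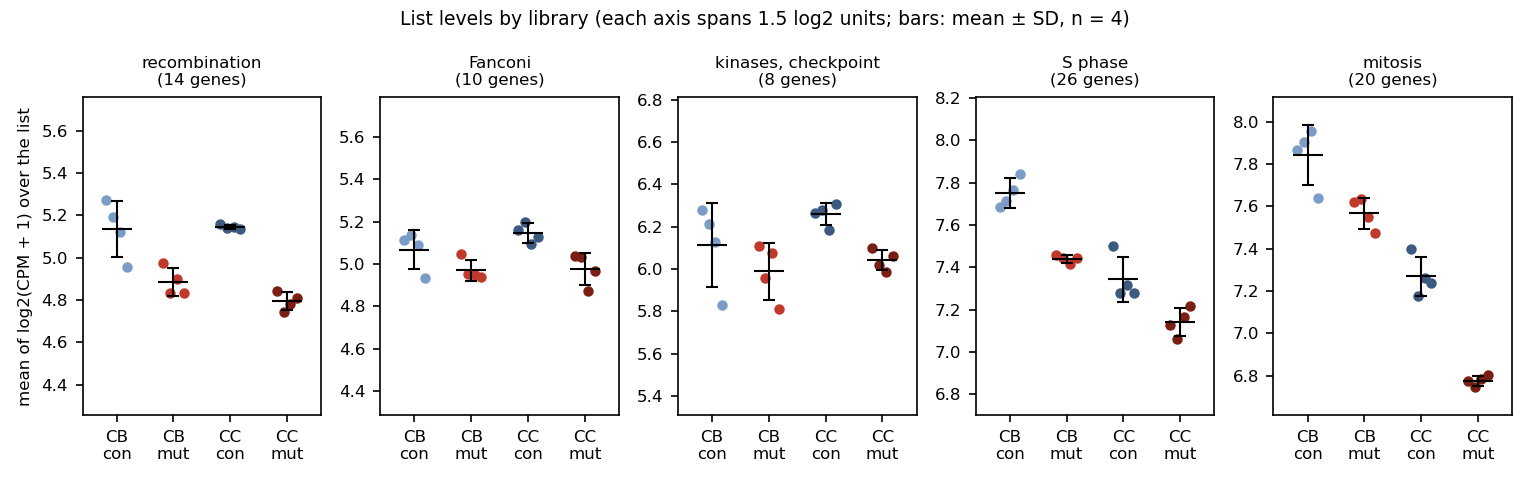
Mean of log2(CPM + 1) over each gene list in each library (points), with the mean and SD of 4 (bars), for 3 role groups of the members and for the S phase and mitosis lists. Each y axis spans 1.5 log2 units. The recombination genes differ between genotypes, with 5.13 to 5.16 against 4.74 to 4.84 in centrocytes, while the S phase and mitosis lists fall from centroblasts (CB) to centrocytes (CC) as well.

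Calls differed in how far they held. Over the 4 comparisons 31 calls were made in 18 members, and 22 members had none. Of the 31 calls 16 were kept on leaving out each library in turn, 10 of these also in every other fit over both sexes, and none changed sign in any fit. The 10 were Brca1 and Rad54l in centroblasts, Brca1, Bard1, Rad54l and Fancd2 in centrocytes, Rad51c, Fanca and Lig4 between zones in controls, and Fanca between zones in mutants.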

How the data were processed

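The authors deposited raw counts per gene symbol in 1 table. Trim Galore, cutadapt, STAR 2.5.3a, Subread with featureCounts 1.4.5-p1 and the build mm10 are named in the submitters' processing notes. The annotation, the strand setting and the treatment of shared reads are not given in the sources used here. 92 spike-in rows (3 reads in all) were left out. Totals of 35230563 to 44466911 counts per library limit counting error, and p-values measure the spread between libraries.

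Counts were tested with edgeR 4.0.16 (R 4.3.3): filterByExpr, TMM factors, 1 mean per group over 16 libraries (12 residual degrees of freedom), quasi-likelihood F tests and Benjamini-Hochberg adjustment over 15240 genes, with calls at an adjusted p under 0.05. CPM use TMM-scaled totals. The genotype was compared in each zone, the zone in each genotype, and the difference of the genotype changes was tested. Alternatives were DESeq2 1.42.0, RLE factors, other filters, the compared groups alone, sex as a covariate, the replicate number as a block, an offset per library from splines of GC content and length (4 degrees of freedom each, from GENCODE gene models on GRCm38, for 96.9% of tested genes), 2 libraries left out and each library left out. Fits within each sex were added after seeing the data. Sex was read from 4 Y-linked genes.

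Members and lists were chosen with earlier results of these data known. Library values are given for members called in the most comparisons (up to 4 per role), for those called in a genotype comparison and for the highest per length in each role. Of the other repair genes up to 4 called genes per genotype comparison, by smallest adjusted p, could be named. 1 gene of that list is not reported here. Same-numbered libraries deviated together in all 4 pairs of mutant centroblasts and centrocytes (correlations 0.259 to 0.315 across genes). The main fit still used no block for the number, and the fit with the block is given beside it. Only 2 of the 4 pairs correlated best with their own number. Some differently numbered libraries of 1 sex correlated as strongly. These were centrocyte 2 with centroblast 1 (0.268) and centrocyte 4 with centroblast 3 (0.311). Centrocyte 1 with centroblast 2 and centrocyte 3 with centroblast 4 gave 0.0802 and 0.0760. The number and the sex are therefore not told apart here. Nothing in the labels states shared mice. Naive B cells of the study were not analysed here.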

Additional observations from a re-analysis of the deposited data

Results flagged for a closer look

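In 160 groups of 4 libraries (40 members in 4 groups) 1 library stood far from the other 3 in 7 cases, where chance alone gives about 1 in 20 groups, or 5%. Rad51c was high in control centroblast library 1 (42.1 CPM, the next 33.1), which is 1 of the libraries behind its fall in mutants. H2afx and Xrcc6 were both high in control centrocyte library 1, at 192 and 102 CPM with the next at 164 and 79.3. Without that library 11 of 40 members were called between zones in controls in place of 9. That is near the share over all tested genes in the same fit, 27.9%. Blm was high in control centrocyte library 2 (58.1 CPM, the next 51.9), Nbn in mutant centrocyte library 3 (54.1 CPM, the next 42.7), and Trp53bp1 was low in mutant centroblast library 2 (65.2 CPM, the next 76.6). Mre11a in mutant centrocyte library 2 stood out at 71.8 CPM only because the other 3 lay together at 71.4.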

How the results depend on the processing

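Members called numbered 6 in centroblasts and 11 in centrocytes for genotype, and 9 in controls and 5 in mutants for zone. For genotype 6.40% of all tested genes fell and 4.06% rose in centroblasts, and 9.15% and 7.37% in centrocytes. For zone 12.9% fell and 14.9% rose in controls, and 7.07% and 8.92% in mutants. Leaving out 1 library at a time gave 3 (without mutant centroblast library 1) to 12 (without control centroblast library 4) in centroblasts. Those 2 fits called 7.45% and 13.9% of all tested genes. In centrocytes it gave 7 (without control library 2 or 4 or mutant library 4) to 9. The fits with 7 called 10.3%, 10.5% and 12% of tested genes. Between zones in controls it gave 4 to 11. Without control centrocyte library 4 there were 4 (19.9% of tested genes), without library 3 there were 5 (20.05%) and without library 1 there were 11 (27.9%). With the replicate number as a block the counts were 2 in centroblasts and 4 between zones in controls. These fits called 6.17% and 22.7% of tested genes. In mutants, where all same-numbered pairs correlated, the block gave 7 between zones (Atr and Prkdc rose besides). It gave 8 for genotype in centrocytes. These fits called 25.2% and 14.3% of tested genes. In the other 3 comparisons not every same-numbered pair correlated above 0.1 (lowest -0.09, highest 0.43). Between zones in mutants the GC and length offset gave 10, and 13 together with the block. Fitting the compared groups alone gave 5 between zones in controls, where 23.2% of tested genes were called. Without mutant centrocyte libraries 3 and 4 the counts were 4 for genotype in centrocytes and 3 between zones in mutants. There 7.64% and 11.8% of tested genes were called. Males alone, with 2 libraries per group, gave 5 in centrocytes, 2 between zones in controls and 2 in mutants. Those fits called 5.82%, 13.0% and 8.79% of tested genes. Females alone, with 2 libraries per group, gave 0 in centroblasts and 3 between zones in mutants. There 3.27% and 6.84% of tested genes were called. The test of the difference between zones gave 0 in every fit. No member's change reversed its sign after a call. Why the counts changed was not tested, and the smaller fits also held fewer libraries. All members passed the filter on low counts, and how depth limits their tests was not examined.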
